A study of Rattus norvegicus with 4 samples.

Results

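The miR-30 family comprises the miRNAs miR-30a to miR-30e, and its members were taken here by name, with both arms of each hairpin. Of the 243 rat miRNAs listed in the deposited values, 9 belonged to the family, 5 from the 5p arm (rno-miR-30a-5p, rno-miR-30b-5p, rno-miR-30c-5p, rno-miR-30d-5p and rno-miR-30e-5p) and 4 from the 3p arm (rno-miR-30a-3p, rno-miR-30b-3p, rno-miR-30c-2-3p and rno-miR-30e-3p), written below without the prefix for rat. Small RNA of exosomes (Exos), vesicles pelleted from serum by ultracentrifugation, was sequenced in 4 libraries. Of these, 2 carried the treatment label exercise, for rats trained on a treadmill for 4 weeks (Exe libraries), and 2 the label sedentary, for untrained controls (Sed libraries). The methods name adult male SD rats for the animal groups. The design text speaks of 20 rats in each group, and how many rats stand behind a library was not given. The library titles open with E in the Sed libraries and with N in the Exe libraries, although E is the initial of exercise, so titles or labels may have been exchanged. The groups follow the treatment labels, and exchanging them would turn every direction below. The direction by label is therefore in doubt for every difference, while its size and test do not depend on this choice.

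Each miR-30 transcript folds into a hairpin from which a 5p and a 3p strand are cut, and an Argonaute protein keeps one of them to repress mRNAs that pair with its seed, bases 2 to 8. The 5p strands are generally regarded as the guides of this family and share a seed, so they are expected to repress overlapping sets of mRNAs. The family is abundant in heart, kidney and other differentiated tissues and is known for repressing Ctgf, a fibrosis factor, and, for miR-30a, Becn1, an autophagy factor.

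The mature sequences are shown because members that were read at very different levels differ by few bases. They are printed as deposited, with T for U and the seed in capitals.
miR-30a-5p: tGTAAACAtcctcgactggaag
miR-30e-5p: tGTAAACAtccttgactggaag
miR-30c-5p: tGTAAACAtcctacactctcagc
miR-30a-3p: cTTTCAGTcggatgtttgcagc
miR-30e-3p: cTTTCAGTcggatgtttacagc
miR-30c-2-3p: cTGGGAGAaggctgtttactct
All 5 listed 5p members had the seed GTAAACA, which 0 other listed miRNAs had. miR-30a-3p and miR-30e-3p shared the seed TTTCAGT, and miR-30c-2-3p and miR-30b-3p each had another. miR-30a-5p and miR-30e-5p differed by 1 substitution, C13T, which gives the base of miR-30a-5p, the position from the 5′ end and the base of miR-30e-5p. In the same notation miR-30a-3p and miR-30e-3p differed by G18A. miR-30d-5p also lay 1 edit from miR-30a-5p, and miR-30b-5p lay 3 edits from miR-30c-5p. The authors' counting could therefore split reads among miR-30a-5p, miR-30d-5p and miR-30e-5p and between miR-30a-3p and miR-30e-3p.

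Both arms of the 2 hairpins that carried most 3p reads are shown to place the strands compared below. The RefSeq sequences (GRCr8) have the listed mature strands in capitals, 5p first.
Mir30a: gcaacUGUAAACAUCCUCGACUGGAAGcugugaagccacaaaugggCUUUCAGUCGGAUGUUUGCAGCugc
Mir30e: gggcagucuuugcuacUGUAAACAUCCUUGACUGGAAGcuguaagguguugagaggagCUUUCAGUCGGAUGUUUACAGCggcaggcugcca
The mature sequences of 5 members were matched by name in RefSeq, and all 5 were identical to the deposited ones. In the gene table of GRCr8, 6 hairpins stand for the family. Mir30e and Mir30c1 lie inside the span of Nfyc, which encodes a subunit of the transcription factor NF-Y. Mir30b and Mir30d lie beside each other inside the span of a long non-coding RNA, and Mir30a and Mir30c2 lie on 1 chromosome. The strand miR-30c-5p is the same in Mir30c1 and Mir30c2, so its reads belong to either. The files were aligned to mRatBN7.2, so no coordinates of GRCr8 are given.

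Values are RPM, the reads of a miRNA scaled to a library total, which was 20780612 to 22140315 reads and held more than the listed miRNAs. Each read is 1 strand of 22 or 23 nt, so levels of members were compared without scaling for length. The listed miRNAs took 649210 to 814439 reads a library, and 1 read was 0.0452 to 0.0481 RPM. Replicates differed beyond sampling noise (chi-square per degree of freedom of 46.4 for Exe and 158 for Sed). The labels do not say that these replicates came from separate animals, and the methods describe replicates as biological in general, without naming these libraries, so the spread between them may be technical. limma compared 178 miRNAs above 0 in at least 2 libraries on the log2(RPM + 1) scale, which understates the change of miRNAs with low values. A miRNA was called where the Benjamini-Hochberg adjusted p was under 0.05 and the fold change exceeded 1 on the log2 scale in either direction.

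All 9 members entered this comparison, and 3 of them were called, miR-30a-5p, miR-30c-5p and miR-30e-3p, all higher in the Exe libraries as the treatment labels name them, a direction in doubt as said above. Among all 178 miRNAs tested, 7.87% were called, 5.06% higher and 2.81% lower in these libraries. Both Exe libraries lay above both Sed libraries for 6 of the 9 members and below them for 1, against 32% and 20.2% of all miRNAs tested. The median log2 fold change was 1.15 over the 9 members and 0.21 over all 178 miRNAs. Since miR-30b-5p and miR-30e-5p, which are among the 6 without overlap, would have entered through the Exe libraries alone, this count and this median are descriptions. Under median-of-ratios scaling, which gave 5 calls higher and 9 lower over all miRNAs in place of 9 and 5, 1 member was called, miR-30e-3p. When Exe replicate 1 was left out, limma called 0 members and 0 of all 161 miRNAs tested, where 3 members and 15 miRNAs passed at an unadjusted p and the fold threshold. Without Exe replicate 2 it called 2 members among 7 of 155 miRNAs. Without Sed replicate 1 it called 3 members among 30 of 168 miRNAs, and without Sed replicate 2 it called 5 among 39 of 168.

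**Figure D1:**
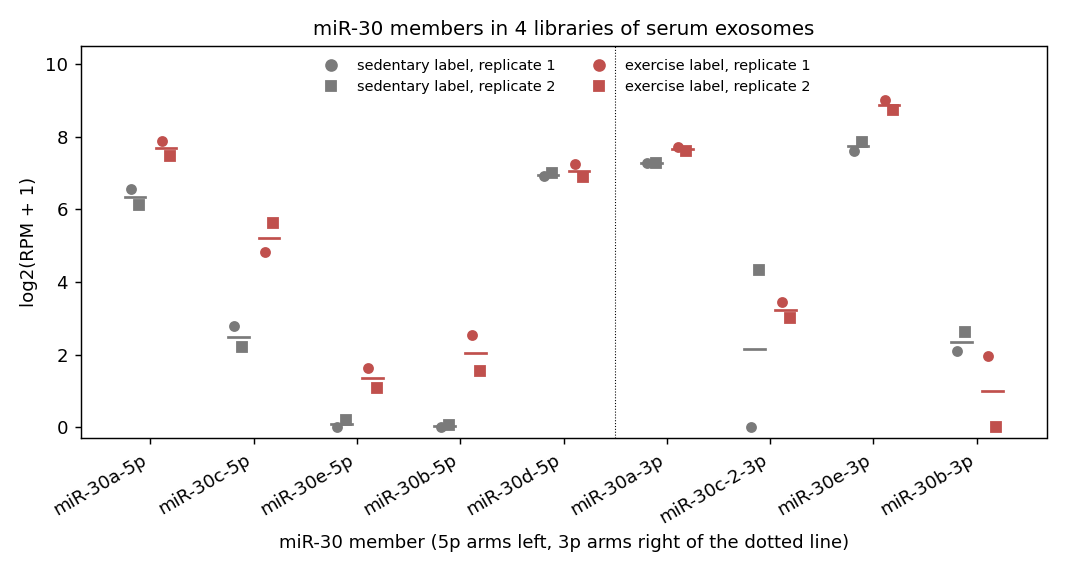
log2(RPM + 1) of the 9 miR-30 members in each of the 4 libraries, by treatment label and replicate, with a bar at the mean of each label (n = 2). The points of miR-30a-5p, miR-30c-5p and miR-30e-3p are apart between labels, those of miR-30d-5p are interleaved, and miR-30c-2-3p and miR-30b-3p each have 1 library at 0.

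miR-30a-5p, the guide strand that represses Becn1, held 236 and 178 RPM in the Exe libraries and 93.8 and 68.1 RPM in the Sed libraries. Both Exe libraries lay above both Sed libraries, with means of 207 ± 41.3 and 80.9 ± 18.1 RPM (SD, n = 2 each). Its log2 fold change was 1.35 (standard error, SE, 0.24, limma adjusted p = 0.025), or 2.54-fold. In the order of the 243 miRNAs it stood at place 18 and 21 in the Exe libraries and at 27 and 41 in the Sed libraries. Under median-of-ratios scaling its log2 fold change was 1.24, and limma gave an adjusted p of 0.057. The call was also lost without the filter (adjusted p = 0.059), with a single variance prior (0.14) and without Exe replicate 1 (0.16).

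miR-30c-5p, a guide strand that represses Ctgf, held 27.1 and 48.3 RPM in the Exe libraries and 5.90 and 3.61 RPM in the Sed libraries. The groups did not overlap, but the Exe libraries differed from each other by more than the level of either Sed library. These values rest on 596 and 1070 reads against 130 and 75 reads. The log2 fold change was 2.72 (SE 0.58, 95% interval 1.29 to 4.16, limma adjusted p = 0.043), or 6.60-fold on the scale of RPM + 1, and it was 1.66 when 10 RPM in place of 1 were added. This interval does not overlap with that of miR-30d-5p below, and it overlaps with that of miR-30a-5p (0.75 to 1.95). The call was lost under median-of-ratios scaling, with either other pseudocount, without the filter, with a single variance prior, and with limma voom, which gave adjusted p of 0.052 to 0.11, and without Exe replicate 1 (0.27) or 2 (0.53).

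miR-30d-5p, a guide strand at 1 edit from miR-30a-5p, held 151 and 117 RPM in the Exe libraries and 119 and 127 RPM in the Sed libraries. The lowest of these 4 values was in an Exe library, and the groups overlapped. Its log2 fold change was 0.11 (SE 0.20, 95% interval -0.37 to 0.59, limma adjusted p = 0.77). In the Sed libraries it was the most abundant 5p member, and in the Exe libraries miR-30a-5p was.

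The other two 5p strands, miR-30b-5p and miR-30e-5p, were near the limit of these libraries, and for miR-30e the 3p strand held nearly all reads, against the usual naming of the 5p strand as the guide. miR-30b-5p had 106 and 43 reads in the Exe libraries and 0 and 1 reads in the Sed libraries. Its pooled reads per library total were 145-fold higher in the Exe libraries (95% exact interval 25.5 to 5747), and limma did not call it (log2 fold change 2.02, adjusted p = 0.12). miR-30e-5p had 46 and 25 reads in the Exe libraries and 0 and 3 reads in the Sed libraries. Its pooled ratio was 23.0 (7.54 to 114), and limma did not call it either (log2 fold change 1.26, adjusted p = 0.16). Both ratios pool the reads of replicates, and their intervals cover counting error only, which was smaller than the spread between replicates. Since both strands would have entered the comparison through the Exe libraries alone, these ratios are descriptions. A count of 0 allows up to 3 reads, or 0.135 to 0.144 RPM.

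Among the 3p strands, which are commonly taken as the passenger strands of miR-30a and miR-30c, miR-30e-3p was the most abundant member of the family in each library. It held 519 and 428 RPM in the Exe libraries and 194 and 232 RPM in the Sed libraries, with no overlap. Its log2 fold change was 1.15 (SE 0.17, limma adjusted p = 0.025), or 2.21-fold, and under median-of-ratios scaling the call was kept (1.04, adjusted p = 0.010). It was lost without the filter (limma adjusted p = 0.053), with a single variance prior (0.14) and without Exe replicate 1 (0.14). miR-30a-3p, at 1 edit from it, held 208 and 194 RPM in the Exe libraries and 154 and 153 RPM in the Sed libraries. These groups did not overlap either, but its log2 fold change of 0.39 was not called (SE 0.15, 95% interval 0.01 to 0.76, limma adjusted p = 0.16). The intervals of both 3p strands met only between 0.72 and 0.76.

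The other two 3p strands were each at 0 in 1 library while the other library of that label held reads. miR-30c-2-3p had 220 and 156 reads in the Exe libraries and 0 and 395 reads in the Sed libraries. The Sed library with reads held more of it than either Exe library. Its log2 fold change of 1.07 (95% interval -2.63 to 4.78, limma adjusted p = 0.68) was -1.09 when Sed replicate 1 was left out and 3.23 when Sed replicate 2 was. miR-30b-3p had 64 and 0 reads in the Exe libraries and 73 and 106 reads in the Sed libraries. It was the single member whose Exe libraries both lay below the Sed libraries, and it was not called (log2 fold change -1.38, SE 0.98, limma adjusted p = 0.43). Its log2 fold change was -2.36 without Exe replicate 1 and -0.39 without Exe replicate 2.

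**Figure D2:**
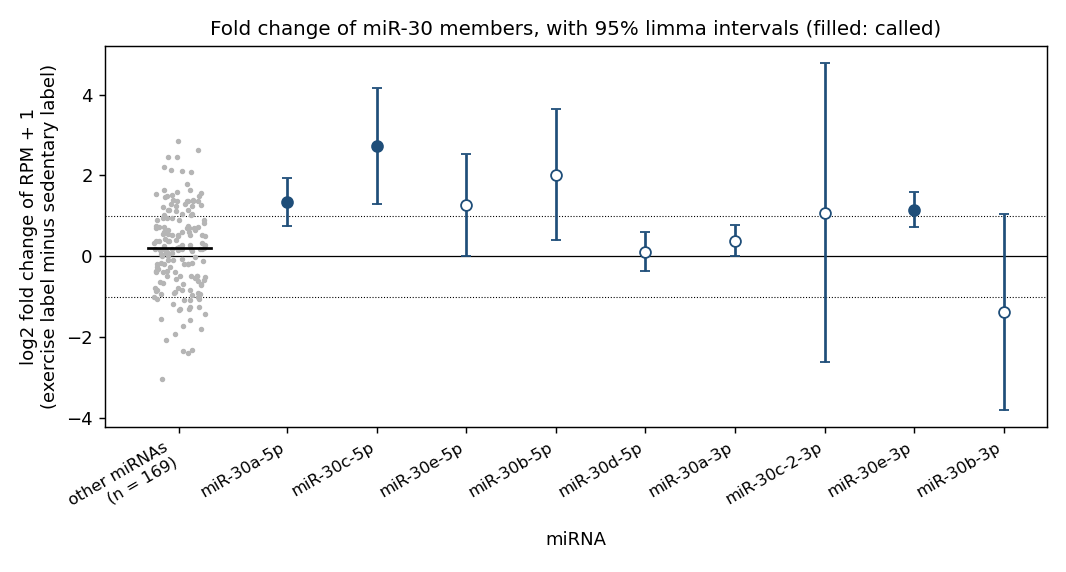
log2 fold change of RPM + 1, exercise label minus sedentary label, of the 9 miR-30 members with 95% limma intervals (filled points were called) beside the 169 other miRNAs tested. The dotted lines mark the fold threshold of 1 and the bar the median of all 178 miRNAs, 0.21; the intervals of miR-30c-2-3p and miR-30b-3p span 0 and those of the 3 called members do not.

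Summed over the 5p strands, which share a seed, the family held 421 and 346 RPM in the Exe libraries and 219 and 199 RPM in the Sed libraries. Both Exe libraries lay above both Sed libraries. The difference of mean log2 values was 0.87 (an exact two-sided permutation test over the libraries gave p = 0.33, the smallest that 2 against 2 allow). Without miR-30a-5p in the sum this difference was 0.46, and without miR-30d-5p it was 1.55. Summed over the 3p strands the family held 739 and 629 RPM against 351 and 409 RPM, a difference of mean log2 values of 0.85 (exact permutation p = 0.33, also the smallest possible). Both arms together took 3.68% and 3.33% of the reads on listed miRNAs in the Exe libraries and 1.66% and 1.55% in the Sed libraries.

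Within the 5p sum, the shares of all 5 members did not overlap between the labels, and those of miR-30b-5p and miR-30e-5p were at most 1.15% in any library. miR-30a-5p gave 56.1% and 51.3% of the 5p reads in the Exe libraries and 42.8% and 34.3% in the Sed libraries. miR-30d-5p gave 35.8% and 33.8% in the Exe libraries and 54.5% and 63.8% in the Sed libraries. The share of miR-30c-5p was 6.45% and 14.0% against 2.70% and 1.82%. Shares of 1 sum move against each other, and each of these comparisons gave an exact permutation p of 0.33, the smallest possible. Over all 178 miRNAs tested, levels in RPM lay higher without overlap for 32% and lower for 20.2%. The count of 5 without overlap is therefore a description. When every miRNA was taken relative to the 5p sum of its library, limma called 0 of the 9 members at an adjusted p under 0.05, and 14.6% of all 178 miRNAs were called, all of them lower in the Exe libraries. The subtraction lowered every log2 fold change by 0.87, the difference of the 5p sum. That shared direction therefore depends on the reference, and the 5p members are part of it. At an unadjusted p, 2 members and 49 of the 178 miRNAs passed. miR-30d-5p had a log2 difference of -0.76 in that comparison (SE 0.28, adjusted p = 0.075) and miR-30c-5p one of 1.85 (SE 0.73, adjusted p = 0.092). With a replicate block both of them were called (adjusted p = 0.011 and 0.041 from limma) among 41 of the 178 miRNAs. Whether the replicate numbers pair the libraries is not known. With a single variance prior the adjusted p was 0.33 and 0.13, and without Exe replicate 1 it was 0.60 and 0.55.

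**Figure D3:**
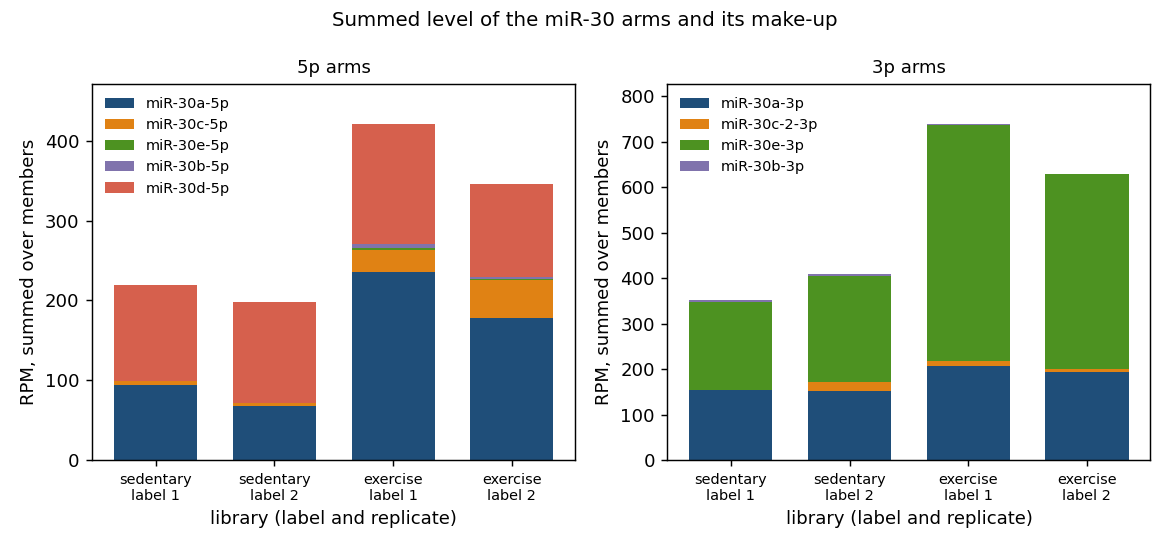
RPM of the miR-30 5p arms (left) and 3p arms (right) in each library, stacked by member, with bars that start at 0. Both sums are higher in the Exe libraries, the miR-30d-5p segment stays between 117 and 151 RPM, and miR-30e-5p and miR-30b-5p are too small to see in the Sed libraries.

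The 3p sum exceeded the 5p sum in each library, with a 5p to 3p ratio of 0.57 and 0.55 in the Exe libraries and 0.62 and 0.49 in the Sed libraries. The values of the groups overlapped, and the difference of mean log2 ratios was 0.02 (exact permutation p = 1.0). These sums do not cover the same hairpins, since miR-30d-5p, at 33.8% to 63.8% of the 5p reads, had no listed 3p strand. The ratio of the sums is therefore not a matched balance of arms. Single hairpins differed from each other in their balance of arms. In miR-30e the 5p strand gave 46 and 25 reads beside 11396 and 9470 reads of the 3p strand in the Exe libraries, or 0.40% and 0.26% of the reads of the hairpin. In the Sed libraries it gave 0% and 0.062%, so the 3p strand held nearly all reads of miR-30e in the 4 libraries. In miR-30a the 5p strand gave 53.2% and 47.8% of the reads in the Exe libraries and 37.9% and 30.8% in the Sed libraries. Its log2 ratio of 5p to 3p was higher in the Exe libraries by 0.96 (SE 0.79, 95% interval -0.96 to 2.88, limma adjusted p = 0.47 over hairpins), and the groups did not overlap. Reads of other members at 1 edit can enter both strands of both hairpins.

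In miR-30b, with 393 reads in all 4 libraries, the 5p strand gave 62.4% and 100% of the reads in the Exe libraries and 0% and 0.93% in the Sed libraries. The Exe libraries thus held mostly or only 5p reads and the Sed libraries nearly only 3p reads. The difference of the log2 ratio was set mostly by the constant added to each arm, at 3.39 with 1 RPM, 7.64 with 0.1 RPM and 0.73 with 10 RPM. The 5p strand would have entered through the Exe libraries alone, so this difference is a description. miR-30c-5p against miR-30c-2-3p gave 73.0% and 87.3% in the Exe libraries and 100% and 15.96% in the Sed libraries, so the Sed libraries lay on either side of the Exe libraries. Over the 31 hairpins of the values with both arms above 0 in at least 2 libraries, limma called 0% for a difference in arm balance (0 hairpins), and 3 of them passed at an unadjusted p under 0.05 (9.68%). One of these is miR-30b, whose p is not read here for the reason given above. Of the 39 other hairpins with at least 100 reads, 14 were mostly 5p in all libraries and 9 mostly 3p in all. miR-30a held both arms between 10% and 90% in all 4 libraries, as 4 of those 39 hairpins did.

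**Figure D4:**
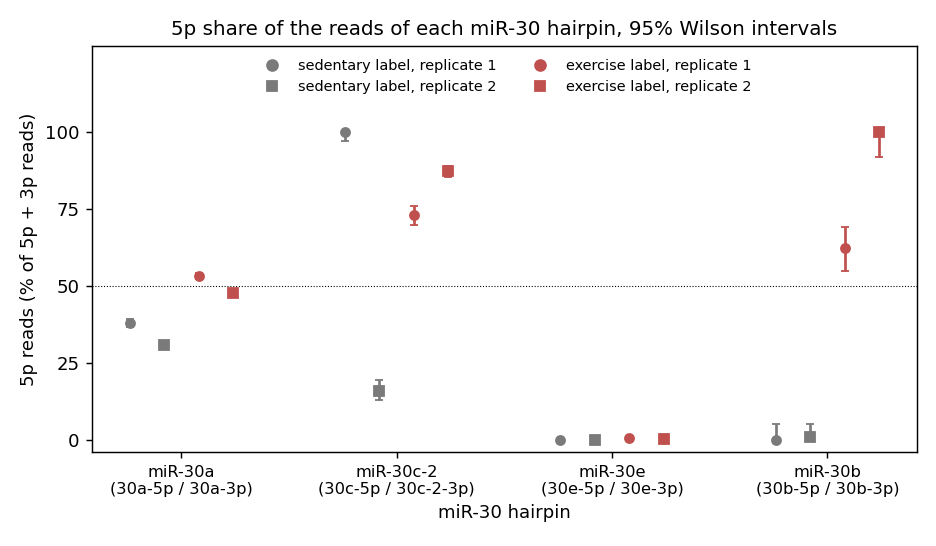
Share of 5p reads among the 5p and 3p reads of each miR-30 hairpin with both arms listed, per library, with 95% Wilson intervals that cover counting error only. miR-30e lies at 0% to 0.40% in each library, miR-30a between 30.8% and 53.2%, and miR-30b and miR-30c-2 spread over most of the range.

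Because reads could be split among near-identical members, the fit was repeated with members at 1 edit summed. miR-30a-3p and miR-30e-3p together held 726 and 622 RPM in the Exe libraries and 348 and 385 RPM in the Sed libraries. Their log2 fold change of 0.87 passed the adjusted p (SE 0.15, limma adjusted p = 0.026) but not the fold threshold. miR-30a-5p, miR-30d-5p and miR-30e-5p together held 389 and 296 against 213 and 195 RPM, a log2 fold change of 0.73 (SE 0.19, adjusted p = 0.076). Of the 6 rows left for the family, 1 was called, miR-30c-5p (limma adjusted p = 0.041), among 12 called over all rows. Within the near-identical pairs, the ratio of miR-30e-3p to miR-30a-3p was 2.50 and 2.20 in the Exe libraries and 1.26 and 1.51 in the Sed libraries. The ratio of miR-30a-5p to miR-30d-5p was 1.57 and 1.52 against 0.79 and 0.54. Neither ratio overlapped between the labels (exact permutation p = 0.33 for each, the smallest possible).

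Other families of near-identical guide strands were read from the same fit. Of 9 let-7 guide strands, regulators of developmental timing and growth, 1 was called, miR-98-5p, higher in the Exe libraries, and their median log2 fold change was 0.17. Of the 2 miR-26 members, miR-26a-5p was called higher, and the median was 1.15. The miR-29 family, which represses collagens, had 1 member in the test (log2 fold change -0.55, not called). Whether miR-30 differs from these families was not tested.

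Marker miRNAs of blood and of other tissues were read in the same libraries. All 5 red cell markers were listed, with summed levels of 4806 to 5774 RPM in the Exe libraries and 8768 to 11312 RPM in the Sed libraries. Their members did not share this direction, since of the 3 that entered the test miR-486 had a log2 fold change of -0.93, miR-451-5p one of 0.37 and miR-16-5p one of 2.47, and none (0) was called by limma (adjusted p = 0.043, below the fold threshold, 0.87 and 0.15). The 4 white cell markers summed to 142 to 155 RPM against 48.8 to 57.0 RPM, and 1 of them was called, miR-150-5p, higher in the Exe libraries (log2 fold change 1.49, limma adjusted p = 0.025). miR-122-5p, the liver marker, was called lower in the Exe libraries (just past the fold threshold, limma adjusted p = 0.017) and held 696 to 732 against 1394 to 1469 RPM. The 4 muscle markers summed to 449 to 497 against 371 to 428 RPM, while 1 of the 3 tested had a log2 fold change above 0 (miR-1-3p 0.41, miR-133b-3p -0.09, miR-206-3p -1.56, none called). Both platelet and vessel markers summed to 67.0 to 69.9 against 57.6 to 68.4 RPM. Their log2 fold changes differed, at 0.05 for miR-126a-3p and 2.11 for miR-126a-5p, and limma called neither (adjusted p = 0.89 and 0.098). miR-126a-5p had no reads in the Sed libraries, so it entered the test through the Exe libraries alone. No marker was at 0 in all 4 libraries. The part of these sources in the miR-30 values was not tested, and fewer vesicles of a source cannot be told apart from less miRNA per vesicle.

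Of the 77 miRNAs outside the family with a mean of at least 10 RPM, miR-181b-5p had the profile over the 4 libraries closest to that of the miR-30 5p sum. Its root mean square difference, after each log2(RPM + 1) profile was centred on its own mean, was 0.094. It held 25.5 and 20.1 RPM in the Exe libraries and 13.7 and 10.2 RPM in the Sed libraries. The next were miR-191a-5p, miR-181a-5p, miR-532-5p and miR-27b-3p, at 0.16 to 0.19. limma called none (0) of these 5, with adjusted p of 0.058 to 0.28, and 3 members of the family lay farther from the 5p sum than 1 on the same scale (miR-30c-5p, miR-30b-3p and miR-30c-2-3p).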

How the data were processed

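Small RNA of serum Exos was read from 1 table of 4 libraries. Per the labels and the methods, the authors trimmed reads with cutadapt, kept reads of 18 to 35 nt, aligned them to mRatBN7.2 with Bowtie and counted them on miRBase miRNAs. The deposited values, which the authors name TPM, are RPM of a larger library total, without scaling for length. All non-zero values (100%) were whole multiples (tolerance 0.001) of the smallest value of their library, taken as 1 read. Too few values were low to take the derived reads as given counts, so the main fit was not a count test. Derived reads entered limma voom as an alternative. No column of values (0) lacked a sample. limma 3.58.1 (R 4.3.3) was fitted to log2(RPM + 1) of miRNAs above 0 in at least 2 libraries, with a variance prior that follows the mean; differences of log2(5p + 1) and log2(3p + 1) per hairpin had a single prior. p-values were adjusted over all features of a fit. The fits were tested on simulated data. Intervals and floors (3 reads) cover counting error only. Tables were made with Python 3.11.15.

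Members and lists were chosen with earlier results of these data known. Named were all miR-30 rows, 3 lists of other families and the 5 closest profiles of a mean of at least 10 RPM, by root mean square difference from the 5p sum. The alternatives were pseudocounts, filters, median-of-ratios scaling, variance priors, a replicate block, limma voom on derived reads, summed near-identical members and leaving out each replicate.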

Additional observations from a re-analysis of the deposited data

How the results depend on the processing

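Against 14 miRNAs and 3 members called, 3 and 0 were called without the filter, which tests 243 miRNAs (3 members and 32 miRNAs at an unadjusted p and the fold threshold), and 0 and 0 with a single variance prior (5 members and 44 of 178 miRNAs at an unadjusted p). With median-of-ratios scaling or with near-identical members summed, 1 member was called. With a replicate left out, where the lone library of a label is assumed to vary like the other label, 0 to 39 miRNAs and 0 to 5 members were called. Relative to the 5p sum, against 0 members among 26 of 178 miRNAs, 3 members were called with pseudocount 10 (among 113 miRNAs), 1 without the filter (29 of 243) and 2 with the replicate block (41 of 178). With a replicate left out 0 to 5 were called, the most without replicate 1 of the Sed libraries, where 66 of 168 miRNAs were called. The difference of the 5p sum was 0.46 without miR-30a-5p, 1.55 without miR-30d-5p and 0.73 to 1.01 with a replicate left out. No hairpin (0) was called for arm balance under any alternative run, but with pseudocount 10 the number that passed at an unadjusted p was 10 of 31, all 4 of miR-30 among them, against 3 and 1.

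Signs turned with pseudocount 10 for the arm balance of miR-30e (-0.91) and, relative to the 5p sum, for miR-30b-5p (-0.46), miR-30c-2-3p (-0.75) and miR-30e-5p (-0.67). With a replicate left out, ranges spanned 0 for miR-30d-5p (-0.072 to 0.29), miR-30c-2-3p (-1.09 to 3.23, and -2.03 to 2.43 relative to the 5p sum) and the arm balance of miR-30e (-0.015 to 0.25) and miR-30c-2 (-0.80 to 4.10). The cause was not tested. The replicate numbers did not pair the libraries (correlation of deviations -0.15). With the replicate block 18 miRNAs and 3 members were called, as with a crossed block chosen after seeing the data.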
